A study of Mus musculus with 14 samples.

Results

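Integrins are cell surface receptors built from an alpha and a beta chain, and their genes were followed here in natural killer T (NKT) cells sorted from the mouse thymus after dexamethasone, a synthetic glucocorticoid. The set held 9 genes chosen by symbol: the alpha chains Itga1, Itga4, Itgae, Itgal and Itgav and the beta chains Itgb1, Itgb2, Itgb3 and Itgb7. Of these 9 genes, 8 were among the 10303 named genes of the deposited NKT count table, and all 8 passed the filter on low counts that left 7965 genes for testing. Itga1, the alpha chain of a collagen receptor, is not listed in the table, so no value is given for it. On GRCm38, the assembly called mm10, the LFA-1 genes Itgal and Itgb2 lie at chr7:127296260-127335138 and chr10:77530252-77565708, both on the plus strand. Itgae lies at chr11:73090583-73147446 and Itgb3 on the same chromosome at chr11:104608000-104670476, Itga4 at chr2:79255426-79333123, Itgav at chr2:83724397-83806916 and Itgb1 at chr8:128685654-128733200, all on the plus strand. Itgb7 lies at chr15:102215995-102231944 on the minus strand.

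The mice were young wild-type males that received either dexamethasone at 200 ug per 10 g of body weight or the vehicle, 8% ethanol, by intraperitoneal injection. Thymic NKT cells were collected 18 h after dexamethasone (5 libraries), 3 d after dexamethasone (4 libraries) or 3 d after vehicle (5 libraries). Each library was a bulk MARS-seq library, a method that counts the 3' ends of polyadenylated transcripts. The labels do not say whether a library came from 1 mouse or from pooled mice, so p-values measure the spread between these libraries. Both dexamethasone groups were compared with the same vehicle libraries, and those were taken at 3 d; no vehicle library of 18 h was analysed here.

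Integrins hold lymphocytes to other cells and to matrix, and they switch between a bent, weakly binding and an extended, strongly binding form. A chain reaches the surface only with a partner, and some beta chains serve several alpha chains. In lymphocytes the Itgal and Itgb2 products form LFA-1, which binds ICAMs. The Itgae product (CD103) pairs with that of Itgb7 and binds E-cadherin on epithelium, the Itga4 product pairs with that of Itgb1 or Itgb7 and binds VCAM-1, fibronectin or MAdCAM-1, and the Itgav product pairs with several beta chains, Itgb3 among them, and binds vitronectin and latent TGF-beta. NKT cells are T cells with a restricted receptor that recognises lipids on CD1d, and many of them stay in tissues as residents.

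Library totals ran from 977037 to 2203273 counts with a median of 1424351, so 1 count stood for 0.471 to 1.11 CPM (TMM-scaled counts per 1e6 counts). NKT and T cell identity genes were detected in every group, 15 of 16 being listed (Trac was not), and their summed level was 4813 to 6218 CPM in vehicle, 2966 to 4412 CPM at 18 h and 4446 to 4996 CPM at 3 d. Within the list, 14 genes were tested: 1 rose and 6 fell at 18 h, with Cd3e, a chain of the T cell receptor complex, lower, and 0 rose and 6 fell at 3 d, with Zbtb16, the transcription factor that defines NKT cells, lower. Summed CD8 and double-positive thymocyte markers were 1406 and 949 CPM in 18 h replicates 2 and 3 against 115 to 158 CPM in the other 18 h libraries, 164 to 306 CPM in vehicle and 77.9 to 120.3 CPM at 3 d, so results at 18 h are also given without those libraries where they changed. Cd8b1 (1008 and 648 CPM) and Cd8a (182 and 113 CPM) made up most of those sums. In the same libraries Dntt, a polymerase of receptor rearrangement, was at 12.8 and 7.36 CPM against a vehicle mean of 25.3 CPM, Endou was at 3.42 and 5.89 CPM against 18.6 CPM, Aqp11 was at 10.3 and 14.7 CPM against 26.6 CPM, and Rag1 was at 0.856 and 0 CPM. Cd24a, which did not pass the count filter, was higher there, at 30.0 and 17.7 CPM against a vehicle mean of 2.80 CPM. So were Themis (43.7 and 35.3 against 10.1 CPM), Rmnd5a (39.4 and 39.0 against 20.4 CPM) and Cd1d1 (43.7 and 40.5 against 22.7 CPM). Of the 9 tested genes of the thymocyte list, 3 rose and 3 fell at 18 h, and 0 rose and 4 fell at 3 d. The shares called at 18 h and 3 d were 66.7% and 44.4% here and 50.0% and 42.9% for the identity list. Over all genes tested they were 34.3% and 25.9%.

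At 18 h, 4 of the 8 integrin genes passed the test against vehicle, with Itga4 higher and Itgae, Itgb1 and Itgb2 lower. At 3 d, 3 of the 8 passed against vehicle, with Itgb7 higher and Itgb2 and Itgb3 lower. Between the dexamethasone times, 3 of the 8 passed, with Itgae and Itgb1 higher and Itgb3 lower at 3 d than at 18 h. Calls were made at an adjusted p under 0.05 by edgeR's quasi-likelihood test with Benjamini-Hochberg adjustment over all genes tested, and the same rule called 34.3% of all genes at 18 h (17.0% higher, 17.3% lower), 25.9% at 3 d (12.1% higher, 13.8% lower) and 11.7% between the times (4.78% higher, 6.91% lower). The integrin shares were 50.0%, 37.5% and 37.5%. The median log2 fold change of the 8 genes was -0.02 at 18 h, -0.16 at 3 d and 0.28 between the times, beside 0.01, 0.03 and -0.01 over all genes tested. The groups lay apart, with no library of one inside the range of the other, for 3 integrin genes at 18 h (Itgb7 higher, Itgae and Itgb2 lower), where 19.8% of all genes did so (9.45% higher, 10.3% lower). The same held at 3 d for Itgb7 (higher), Itgb2 and Itgb3 (lower), beside 21.6% of all genes (9.34% higher, 12.2% lower). Between the times the groups were apart for Itgae and Itgb1 (higher) and Itgb3 (lower), beside 11.1% of all genes (5.01% higher, 6.14% lower).

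**Figure D1:**
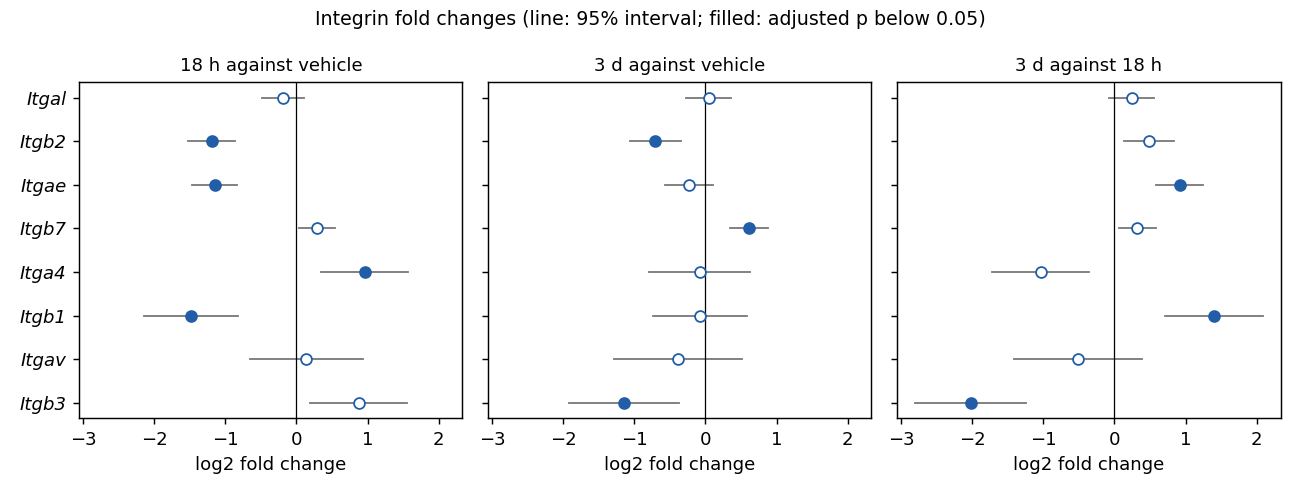
Log2 fold changes of the 8 listed integrin genes from edgeR in the comparisons of each dexamethasone time with vehicle and of the dexamethasone times with each other, with 95% intervals; filled points passed an adjusted p of 0.05. Itgae, Itgb1 and Itgb2 lie below 0 at 18 h, and by 3 d the Itgae and Itgb1 intervals against vehicle span 0 while that of Itgb2 does not.

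Itgb2, the beta chain shared by all leukocyte beta2 integrins, fell at both times, whereas Itgal, the LFA-1 alpha chain, did not pass the test at either time. Itgb2 was at 1059, 1168, 889, 1307 and 1351 CPM in vehicle, at 357, 449, 631, 656 and 433 CPM at 18 h and at 746, 656, 642 and 785 CPM at 3 d. Every dexamethasone library lay below every vehicle library. The fall at 18 h was 2.28-fold (log2 fold change -1.19 ± 0.17 SE, n = 5 and 5, edgeR adjusted p = 2.4e-05) and that at 3 d was 1.63-fold (-0.71 ± 0.18, n = 4 and 5, edgeR adjusted p = 0.0070). In sorted bulk RNA, fewer cells with a transcript and less transcript per cell cannot be told apart. The 3 d level was 0.48 ± 0.18 above the 18 h level on the log2 scale, which did not pass (edgeR adjusted p = 0.084) except without 18 h replicate 4 (0.60, edgeR adjusted p = 0.030).

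Itgal stood at 369, 428, 469, 518 and 438 CPM in vehicle, at 369, 290.2, 341, 463 and 481 CPM at 18 h and at 396, 477, 535 and 428 CPM at 3 d. The 3 groups overlapped throughout. Its log2 difference from vehicle was -0.19 at 18 h with a 95% interval of -0.49 to 0.11 and 0.05 at 3 d with an interval of -0.27 to 0.36, so a fall the size of that of Itgb2 lay outside both intervals. The log2 ratio of Itgal to Itgb2 counts was -1.37 ± 0.27 in vehicle (SD, n = 5), -0.36 ± 0.45 at 18 h (n = 5) and -0.63 ± 0.32 at 3 d (n = 4). The highest vehicle ratio was -0.92, and the lowest was -0.89 at 18 h and -0.91 at 3 d, so the groups did not overlap, by a narrow margin. These ratios are a description, with no test, and a ratio of 3' counts of 2 genes is read only between groups.

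**Figure D2:**
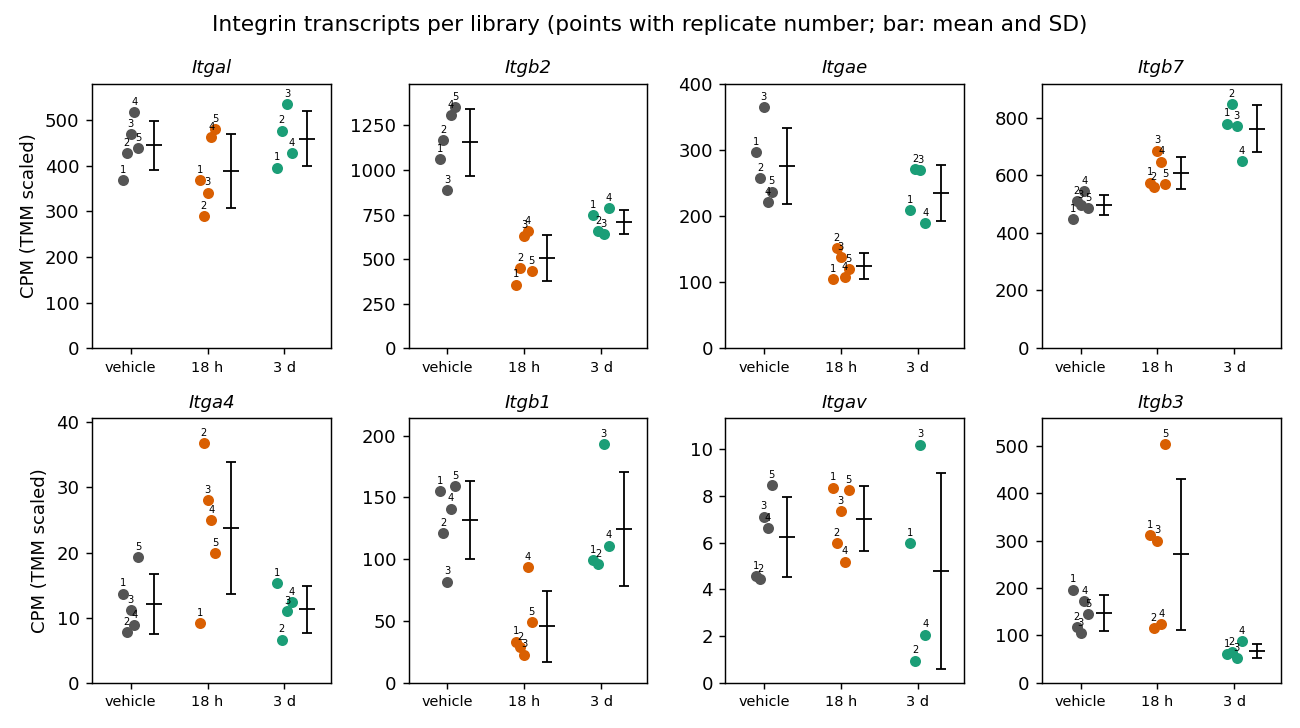
Level of each of the 8 listed integrin genes in every library, in CPM on a linear axis from 0, for vehicle (n = 5), 18 h (n = 5) and 3 d (n = 4); points are libraries with their replicate numbers, and bars are group means and SD. Itgb2 is lower and Itgb7 higher in all dexamethasone libraries than in vehicle. Itgae, Itgb1, Itgb2 and Itgal have their lowest means at 18 h, and Itgb3 spreads from 116 to 504 CPM at 18 h.

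The chains of the E-cadherin receptor took different courses. Itgae fell at 18 h and was higher again at 3 d, and Itgb7 was higher at 3 d. Itgae was at 297, 257, 365, 221 and 237 CPM in vehicle, at 104, 152, 138, 108 and 120.2 CPM at 18 h and at 209, 271, 270.2 and 189 CPM at 3 d. All 18 h libraries lay below all libraries of both other groups, which overlapped each other. The fall at 18 h was 2.22-fold (log2 fold change -1.15 ± 0.16 SE, edgeR adjusted p = 2.4e-05). From 18 h to 3 d the level rose 1.89-fold (0.92 ± 0.17, edgeR adjusted p = 0.0011), and the 3 d difference from vehicle was -0.23 with a 95% interval of -0.57 to 0.10 (edgeR adjusted p = 0.32).

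Itgb7 was at 449, 509, 495, 546 and 486 CPM in vehicle, at 574, 559.8, 685, 647 and 569 CPM at 18 h and at 779, 846, 769.9 and 649.5 CPM at 3 d. Every dexamethasone library exceeded every vehicle library. The 3 d rise was 1.53-fold (0.61 ± 0.13, edgeR adjusted p = 0.0021), and the 18 h difference of 0.29 ± 0.13 did not pass (edgeR adjusted p = 0.082), though it did with DESeq2, limma voom or a filter at a mean of 20 CPM (adjusted p = 0.027, 0.032 and 0.043). From 18 h to 3 d the difference was 0.32 ± 0.13 (edgeR adjusted p = 0.13). The log2 ratio of Itgae to Itgb7 was -0.87 ± 0.35 in vehicle (SD, n = 5), -2.29 ± 0.27 at 18 h (n = 5) and -1.71 ± 0.17 at 3 d (n = 4). Both dexamethasone groups lay below the vehicle range of -1.30 to -0.44 without overlap. At 3 d the level of Itgae was near that of vehicle while the ratio was lower in all 4 libraries.

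**Figure D3:**
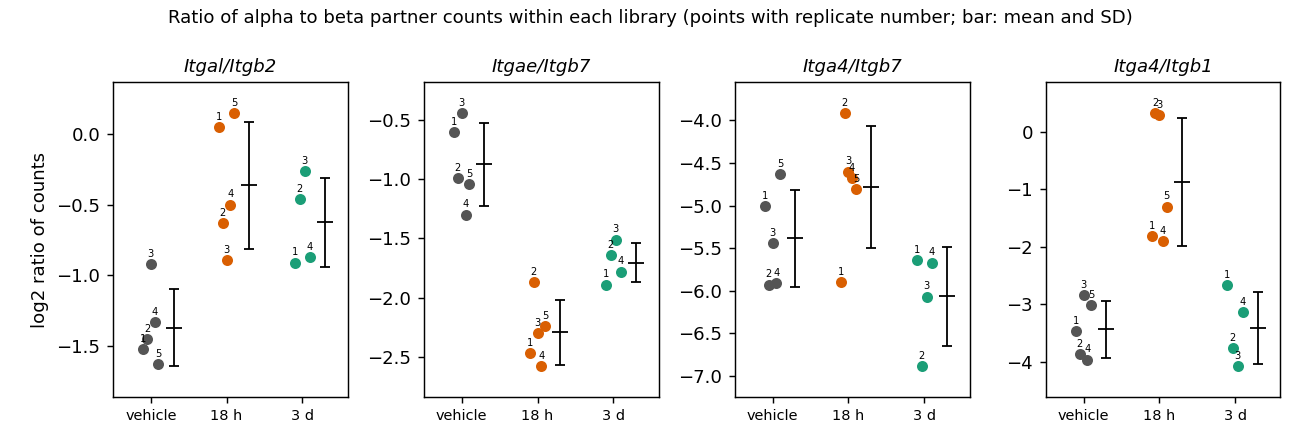
Log2 ratio of alpha chain to beta chain counts (0.5 added to each) in every library for 4 pairs of integrin chains known to assemble, by group; points are libraries with their replicate numbers, and bars are group means and SD. The Itgal to Itgb2 ratio is higher and the Itgae to Itgb7 ratio lower in all dexamethasone libraries than in vehicle, and the Itga4 to Itgb1 ratio is higher at 18 h than in the other groups.

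Promoters of the VCAM-1 and fibronectin receptor chains are shown because Itgb1 fell and Itga4 rose at 18 h and Itgb7 rose at 3 d. The sequences run from 250 bases before to 50 bases after the RefSeq gene start on GRCm38.p6. They cover chr8:128685404-128685703 on the plus strand (Itgb1), chr2:79255176-79255475 on the plus strand (Itga4) and chr15:102231886-102232185 on the minus strand (Itgb7). Capitals mark, on either strand, the hexamer AGAACA to which the glucocorticoid receptor can bind, the Sp1 box GGGCGG and the RUNX hexamer TGTGGT.
Itgb1: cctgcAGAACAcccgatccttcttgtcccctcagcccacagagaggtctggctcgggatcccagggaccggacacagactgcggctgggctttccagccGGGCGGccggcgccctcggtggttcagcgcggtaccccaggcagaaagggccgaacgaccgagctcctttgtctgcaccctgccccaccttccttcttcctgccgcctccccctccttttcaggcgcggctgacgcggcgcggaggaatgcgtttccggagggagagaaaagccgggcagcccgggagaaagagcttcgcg
Itga4: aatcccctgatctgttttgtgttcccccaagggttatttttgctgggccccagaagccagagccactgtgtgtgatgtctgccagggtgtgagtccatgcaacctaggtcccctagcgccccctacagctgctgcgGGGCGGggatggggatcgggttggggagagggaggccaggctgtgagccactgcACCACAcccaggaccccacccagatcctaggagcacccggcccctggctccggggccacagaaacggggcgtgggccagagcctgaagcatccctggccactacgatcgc
Itgb7: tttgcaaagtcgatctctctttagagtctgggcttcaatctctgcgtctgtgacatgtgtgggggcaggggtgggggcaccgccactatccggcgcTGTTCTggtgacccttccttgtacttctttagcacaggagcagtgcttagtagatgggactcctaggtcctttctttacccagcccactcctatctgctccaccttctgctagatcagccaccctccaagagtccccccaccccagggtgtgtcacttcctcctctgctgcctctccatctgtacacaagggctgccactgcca
AGAACA lay 245 bases before the start in Itgb1 and, on the opposite strand, 154 bases before it in Itgb7, and was not in the Itga4 window. GGGCGG lay 151 bases before the start in Itgb1 and 114 bases before it in Itga4, and the reverse complement of TGTGGT lay 60 bases before it in Itga4. The full glucocorticoid response element (a G, any base, ACA, any 3 bases, TGT, any base and a C) was in none of these windows. None of the capitals belong to overlapping matches. Of all 32851 promoters of this length, 19.0% held AGAACA, 0.475% the full element, 35.7% GGGCGG and 16.8% TGTGGT, so these matches describe the letters only.

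Itgb1, the beta chain of the fibronectin, laminin and collagen receptors, fell at 18 h, and Itga4 rose. Itgb1 was at 155, 121, 81.9, 141 and 159 CPM in vehicle, at 33.4, 29.1, 22.8, 93.8 and 49.4 CPM at 18 h and at 99.0, 95.8, 193 and 111 CPM at 3 d. The 18 h libraries were lower than the vehicle libraries apart from replicate 4, which exceeded vehicle replicate 3, and the 3 d libraries overlapped vehicle. The fall at 18 h was 2.79-fold (log2 fold change -1.48 ± 0.34 SE, edgeR adjusted p = 0.0033), and without 18 h replicates 2 and 3 it was -1.12 ± 0.32 (edgeR adjusted p = 0.016). The difference of 3 d from vehicle was -0.08 with a 95% interval of -0.74 to 0.59. The rise from 18 h to 3 d was 2.64-fold (1.40 ± 0.35, edgeR adjusted p = 0.016). It did not pass without 3 d replicate 3, the highest library (1.12, edgeR adjusted p = 0.058), or without 18 h replicates 2 and 3 (1.04, edgeR adjusted p = 0.064).

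Itga4 was at 13.7, 7.78, 11.2, 8.83 and 19.3 CPM in vehicle, at 9.20, 36.8, 28.0, 25.0 and 19.9 CPM at 18 h and at 15.3, 6.64, 11 and 12.4 CPM at 3 d. In 4 of the 5 libraries of 18 h it exceeded all vehicle libraries, and replicate 1 lay within the vehicle range. The rise was 1.94-fold (0.96 ± 0.32 SE, edgeR adjusted p = 0.023). The highest levels were those of 18 h replicates 2 and 3. Cd8b1, a chain of the CD8 coreceptor, was at 1008 and 648 CPM there against 9.43 to 71.2 CPM elsewhere. Of the same marker list, Dntt, Endou and Aqp11 were below their vehicle means in these libraries, and Cd24a, Themis, Rmnd5a and Cd1d1 were above theirs. Without these replicates the Itga4 difference was 0.60 ± 0.34 (edgeR adjusted p = 0.20). The part of CD8-expressing cells in the Itga4 level was not tested. The rise also did not pass without vehicle replicate 2 (0.86, edgeR adjusted p = 0.056), vehicle replicate 4 (0.85, 0.067), 18 h replicate 2 (0.77, 0.072) or 18 h replicate 3 (0.90, 0.051). Exons of Itga4 overlap the opposite-strand gene Cerkl by 1124 bases, and Cerkl had 0 to 6 counts a library. The sources used here do not say how strand was treated, and the part of Cerkl reads in the Itga4 counts was not tested.

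At 3 d Itga4 differed from vehicle by -0.08 ± 0.36 (edgeR adjusted p = 0.89), and from 18 h by -1.04 ± 0.35 (edgeR adjusted p = 0.054). Without 18 h replicate 1, whose Itga4 was the lowest of its group, the latter passed (-1.23, edgeR adjusted p = 0.010). The log2 ratio of Itga4 to Itgb1 ran from -3.96 to -2.84 in vehicle, from -1.90 to 0.33 at 18 h and from -4.08 to -2.67 at 3 d. The 18 h ratios overlapped neither other group, with replicates 2 and 3 included, and the ratio of Itga4 to Itgb7 overlapped between all groups.

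Itgb3, the beta chain of the vitronectin receptor and of the platelet fibrinogen receptor, spread widely at 18 h and was low at 3 d. It was at 197, 117, 105, 172 and 145 CPM in vehicle, at 312, 116, 300.2, 124 and 504 CPM at 18 h and at 60.5, 65.4, 52.5 and 87.5 CPM at 3 d. The 18 h libraries fell into 3 above every vehicle library (replicates 1, 3 and 5) and 2 within the vehicle range, while all 3 d libraries lay below all others. From 18 h to 3 d the level fell 4.06-fold (log2 fold change -2.02 ± 0.40 SE, edgeR adjusted p = 0.0045), and this held with any single library left out (-2.22 to -1.67).

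Against vehicle, Itgb3 at 3 d fell 2.21-fold (-1.15 ± 0.40, edgeR adjusted p = 0.046), close to the threshold. The call did not hold when vehicle replicate 1, 2, 4 or 5, 18 h replicate 1 or 3, or 3 d replicate 1, 2 or 3 was left out, with values over all single omissions of -1.31 to -1.02 and edgeR adjusted p up to 0.12. The 18 h difference of 0.88 had a 95% interval of 0.19 to 1.56 and did not pass (edgeR adjusted p = 0.067). It passed without 18 h replicate 2 or 18 h replicate 4, the low libraries (1.07, edgeR adjusted p = 0.014 for each), and without both 18 h replicates 2 and 3 (1.08 ± 0.34, edgeR adjusted p = 0.028). It also passed with DESeq2 (adjusted p = 0.021) and with a filter at a mean of 20 CPM (0.90, edgeR adjusted p = 0.042).

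Since Itgb3 is abundant in platelets and present in macrophages, their markers were set beside it. Of 10 platelet genes, 3 are listed, and their summed level was 3.33 to 7.12 CPM in vehicle, 3.77 to 22.3 CPM at 18 h and 5.08 to 17.9 CPM at 3 d. In 18 h replicates 1, 3 and 5, where Itgb3 was high, Itga2b, its partner in the platelet receptor, was at 10.9, 5.89 and 4.12 CPM, and in replicates 2 and 4 it was at 2.57 and 2.83 CPM, with at most 2.21 CPM in vehicle. Pf4, a platelet chemokine, was at 2.51, 1.47 and 17.2 CPM in the former and at 18.8 and 0 CPM in the latter. Of 20 macrophage and dendritic cell genes, 16 are listed, with a summed level of 814 to 1540.1 CPM in vehicle. At 18 h that sum was 1452, 1932 and 1719.6 CPM in the replicates with high Itgb3 and 1137 and 448 CPM in the others. The summed platelet level was 15.9, 7.36 and 22.0 CPM in the replicates with high Itgb3 and 22.3 and 3.77 CPM in the others. Itga2b and the macrophage sum were thus higher in the libraries with high Itgb3, whereas Pf4 and the platelet sum did not separate them. At 3 d, where Itgb3 was lowest, the macrophage sum was 1016 to 3057 CPM and Itga2b 3.32 to 6.20 CPM. The part of these cells in the Itgb3 levels was not tested.

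Itgav, whose product pairs with that of Itgb3, was scarce. It was at 4.57, 4.45, 7.12, 6.62 and 8.48 CPM in vehicle, at 8.36, 5.99, 7.36, 5.19 and 8.24 CPM at 18 h and at 5.98, 0.948, 10.2 and 2.07 CPM at 3 d. All groups overlapped. The differences of 0.14 ± 0.40 at 18 h and -0.38 ± 0.46 at 3 d did not pass (edgeR adjusted p = 0.81 and 0.56), with 95% intervals of -0.65 to 0.94 and -1.28 to 0.52. The ratios of Itgav to Itgb1 and to Itgb3 overlapped between the groups.

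Other integrin subunits were scarce. Of 18 further subunit genes, 9 are listed and 4 were tested: Itga3 and Itga6, alpha chains of laminin receptors, Itgax, the CD11c alpha chain, and Itgb5, another partner of the Itgav product. Their group means were 4.12 to 14.1 CPM, and 0 of 4 were called in any comparison by edgeR. DESeq2 also called 0 of them, and limma voom called Itga6 at 3 d. At an unadjusted p under 0.05 stood Itga6 at both times (0.74 ± 0.33 and 0.79 ± 0.36, edgeR adjusted p = 0.089 and 0.10) and Itgb5 between the times (1.42 ± 0.67, edgeR adjusted p = 0.19). Without vehicle replicate 3 Itga6 was called at both times, and without 18 h replicates 2 and 3 Itga3 was called at 18 h. The 5 listed but untested subunits had group means of at most 5.25 CPM. From vehicle to 18 h, mean levels went from 0.424 to 5.13 CPM for Itgam, 0.933 to 4.79 CPM for Itga10 and 1.63 to 5.25 CPM for Itga2b. Each had at most 15 counts in a library. In the authors' deposited table each of these had an adjusted p under 0.05 at 18 h.

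The intracellular proteins that switch integrins on were looked at next, from a list of 18 genes of which 14 were tested. At 18 h 5 rose and 3 fell, and at 3 d 6 rose and 2 fell, with list medians of -0.06 and 0.15 on the log2 scale. The share called was 57.1% at each time, beside 34.3% at 18 h and 25.9% at 3 d over all genes tested. Without 3 d replicate 1, the 8 calls at 3 d became 5 (4 higher, 1 lower). Rasgrp2, the exchange factor that loads Rap1 with GTP, rose at both times. It went from 61.9 ± 9.50 CPM in vehicle (SD, n = 5) to 233 ± 89.6 CPM at 18 h and 154 ± 19.9 CPM at 3 d, with every dexamethasone library above every vehicle library (log2 fold changes of 1.91 and 1.31, edgeR adjusted p = 5.3e-06 and 7.0e-04). Rap1b, a Rap1 GTPase itself, rose by 0.96 at 18 h and 0.86 at 3 d (edgeR adjusted p = 0.0025 and 0.011), the latter not passing without 3 d replicate 1 (0.72, edgeR adjusted p = 0.052). Cyth1, which binds the tail of the Itgb2 product, rose by 1.22 and 0.80 (edgeR adjusted p = 1.4e-04 and 0.010).

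Skap1, an adaptor in the complex that carries Rap1 signals to LFA-1, moved the other way. It fell from 512 ± 45.9 CPM in vehicle to 308 ± 53.6 CPM at 18 h and 304 ± 46.1 CPM at 3 d, without overlap with vehicle (log2 fold changes of -0.73 and -0.75, edgeR adjusted p = 6.5e-04 and 0.0015). Tln1, talin, which binds beta chain tails and extends the receptor, fell at 18 h from 705 ± 108 to 473 ± 67.8 CPM (-0.57, edgeR adjusted p = 0.0065), and was -0.45 without 18 h replicates 2 and 3, which did not pass (edgeR adjusted p = 0.059). Among 10 tested of 12 genes that restrain integrins, 2 rose and 3 fell at 18 h, and 5 rose and 0 fell at 3 d, with medians of -0.11 and 0.29. The share called was 50.0% at each time, beside 34.3% at 18 h and 25.9% at 3 d over all genes tested. The 5 calls at 18 h became 3 without vehicle replicate 1, 2 or 5 or 18 h replicate 5 and 2 without 18 h replicates 2 and 3, and the 5 at 3 d became 2 without 3 d replicate 2. Rap1gap2, which turns Rap1 off, was at 6.45 ± 3.53 CPM in vehicle, 3.91 ± 2.98 CPM at 18 h and 25.2 ± 7.73 CPM at 3 d, and the rise at 3 d passed (1.92, edgeR adjusted p = 0.0015). Rasa3, another Rap1 inactivator, rose from 68.1 to 107 CPM at 3 d (0.63, edgeR adjusted p = 0.011).

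Of the adaptors, kinases and cytoskeletal proteins that assemble on engaged integrins, 25 of 33 were tested. At 18 h 2 rose and 5 fell, and at 3 d 1 rose and 5 fell, with medians of -0.18 and -0.19. The shares called, 28.0% and 24.0%, were below the 34.3% and 25.9% of all genes tested. The 7 calls at 18 h became 4 (0 higher, 4 lower) without vehicle replicate 1 and 12 (3 higher, 9 lower) without vehicle replicate 3. Zyx, zyxin of focal adhesions, was lowest at 18 h. It was at 919 ± 161 CPM in vehicle, 341 ± 107 CPM at 18 h and 686 ± 87.5 CPM at 3 d, with the 18 h libraries below all others (log2 fold changes of -1.43 against vehicle, edgeR adjusted p = 6.9e-06; 1.01 from 18 h to 3 d, edgeR adjusted p = 0.0012). Parvg, the parvin of blood cells, fell at both times (-0.85 and -1.12, edgeR adjusted p = 7.8e-04 and 2.1e-04). Rsu1, which joins the same complex as the parvins, fell at 3 d from 52.9 to 22.7 CPM (-1.19, edgeR adjusted p = 8.4e-04).

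**Figure D4:**
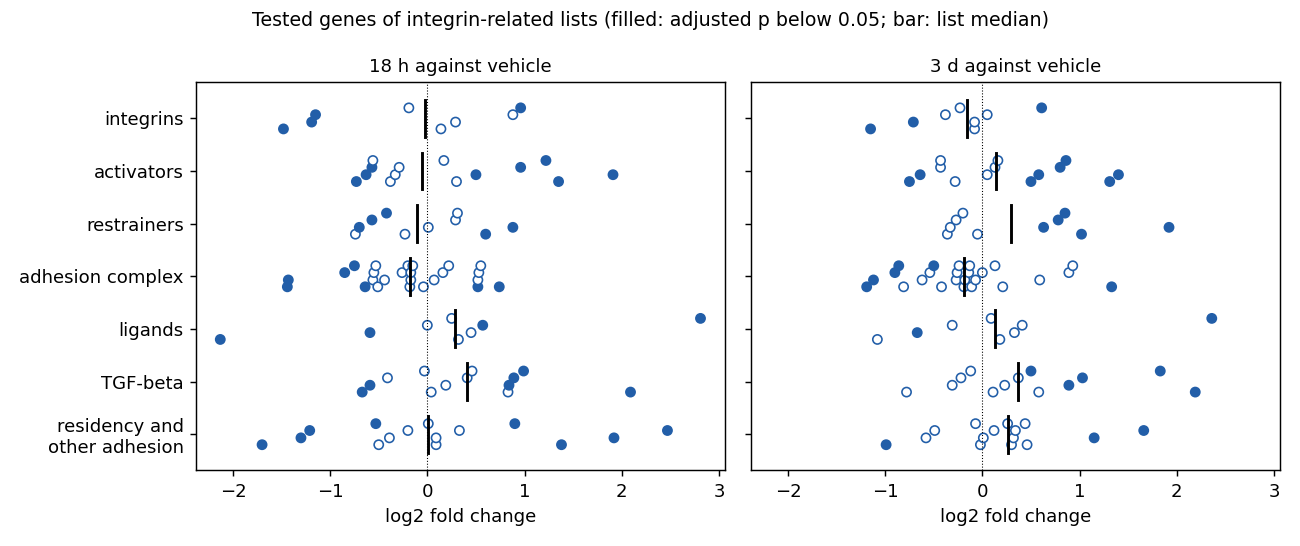
Log2 fold changes of the tested genes of each list at 18 h and at 3 d against vehicle; each point is a gene, filled where called by edgeR, and bars are list medians. Called genes lie on both sides of 0 in the activator list at both times, and all 5 called restrainers are above 0 at 3 d.

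Few integrin ligands were measurable in the sorted cells, with 8 of 28 tested. Cdh1, E-cadherin and the ligand of the Itgae and Itgb7 pair, was at 32.9 ± 8.76 CPM in vehicle, 7.47 ± 3.90 CPM at 18 h and 44.5 ± 9.10 CPM at 3 d. The 18 h libraries lay below all others (log2 fold changes of -2.13 against vehicle, edgeR adjusted p = 1.3e-05; 2.54 from 18 h to 3 d, edgeR adjusted p = 8.1e-06), so Cdh1 and Itgae were both lowest at 18 h. Vcam1, a ligand of the Itga4 pairs, rose from 1.98 ± 1.88 to 15.0 ± 8.27 CPM at 18 h (edgeR adjusted p = 0.0014), a few counts a library in vehicle. It is also a gene of stromal cells and macrophages, and Mrc1, a macrophage receptor, rose at 18 h as well, from 0.536 to 8.05 CPM (edgeR adjusted p = 4.2e-04). Of the 12 tested macrophage and dendritic cell genes, Mrc1 and Cd68 were the 2 called at 18 h, both higher (16.7%, beside 34.3% of all genes tested). Without 18 h replicates 2 and 3, 0 of the 12 were called. Lyz2 (-0.65), Csf1r (-0.23), C1qa (0.20) and C1qc (0.20) did not pass, and the part of such cells was not tested. Icam1, an LFA-1 ligand, was at 81.1 CPM in vehicle and 81.3 CPM at 18 h and did not pass.

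TGF-beta, which induces CD103 in T cells, was covered by 13 tested genes of its pathway. Of these, 4 rose and 2 fell at 18 h and 5 rose and 0 fell at 3 d, with medians of 0.41 and 0.37. The shares called were 46.2% and 38.5%, beside 34.3% and 25.9% of all genes tested. Without 3 d replicate 1 the 5 calls at 3 d became 3, all higher. Tgfb1, the ligand, fell at 18 h from 208 ± 27.1 to 138 ± 12.8 CPM without overlap (log2 fold change -0.59, edgeR adjusted p = 0.0046). Smurf2, a ubiquitin ligase that restrains the pathway, rose at both times (2.09 and 1.83, edgeR adjusted p = 2.6e-06 and 4.0e-05). Smad7, its inhibitory Smad, rose at 3 d from 36.3 ± 18.0 to 169 ± 24.0 CPM (2.19, edgeR adjusted p = 2.6e-04). Smad4, of the same list, rose at 18 h without overlap (0.84, edgeR adjusted p = 0.0056). Tgfbr1, a receptor gene of the pathway, rose at 3 d (0.89, edgeR adjusted p = 0.0090). The part of this pathway in the Itgae levels was not tested.

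Of 15 tested genes of tissue residency and other adhesion, 4 rose and 4 fell at 18 h and 2 rose and 1 fell at 3 d. The share called at 18 h was 53.3%, beside 34.3% of all genes tested. The share called at 3 d was below the 25.9% of all genes tested. Without 18 h replicates 2 and 3 the 8 calls at 18 h became 4, while those over all genes went from 2734 to 2185. Cd69, which holds lymphocytes in tissue, rose at both times (log2 fold changes of 1.92 and 1.66, edgeR adjusted p = 0.0025 and 0.011), although 3 d replicate 2 stayed at 37.9 CPM, within the vehicle range. Cd44, a hyaluronan receptor, fell at 18 h from 40.3 ± 8.70 to 16.2 ± 10.1 CPM (-1.30, edgeR adjusted p = 0.0025) and was at 43.4 ± 12.4 CPM at 3 d. Klrb1c, the NK1.1 antigen of mature NKT1 cells, went from 224 ± 13.3 CPM in vehicle to 38.5 ± 21.3 CPM at 18 h and 276 ± 90.8 CPM at 3 d (-2.54 at 18 h, edgeR adjusted p = 4.3e-06). Klrb1c, Itgae, Itgb1 and Itgb2 thus all had their lowest means at 18 h, as did Itgal, which did not pass. The part of cells marked by Klrb1c in the integrin levels was not tested.

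The genes whose pattern was most like that of each integrin were found among 5114 genes with a mean of at least 20 CPM, by the mean absolute difference of centred log2 levels over the 14 libraries. Rab35 lay nearest Itgal and Mier2 nearest Itgb7, each with a distance of 0.11. Sdr39u1 lay nearest Itgb2 (0.15), Impdh2 nearest Itgae (0.21), G6pc3 nearest Itgb1 (0.25) and Pmvk nearest Itgb3 (0.32). The median distance over the candidates ran from 0.34 for Itgal to 0.80 for Itgb1 and Itgb3. Itga4 and Itgav, with means under 20 CPM, were left out.

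In the authors' deposited table of comparisons, 6 integrin genes of the set had an adjusted p under 0.05 at 18 h, 3 at 3 d and 4 between the times. These counts of the authors' deposited table included every edgeR call made here and added Itgb3 and Itgb7 at 18 h and Itgb7 between the times. By the pass mark in the authors' deposited table, 3 integrin genes of the set passed at 18 h (Itgae, Itgb1 and Itgb2), 1 at 3 d (Itgb3) and 2 between the times (Itgb1 and Itgb3). The rule behind that mark is not given here, and it differs from the adjusted p threshold. At 3 d Itgb7 (log2 size 0.61, authors' DESeq2 adjusted p = 4.4e-06) and Itgb2 (0.71, 0.0015) lacked it, while Itgb3 (1.15, 0.0073) had it. The shares of all genes with that mark, or with an adjusted p under 0.05 in the authors' deposited table, were not counted. A DESeq2 fit run here called 6, 3 and 5 integrins at 18 h, at 3 d and between the times. It called 2785, 2224 and 1054 of all genes in the same comparisons.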

How the data were processed

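Thymic NKT cells were profiled by bulk MARS-seq in 14 libraries of 3 groups. Per the submitters' processing notes, bcl2fastq, cutadapt, STAR 2.5.2b, HTSeq and DESeq2 were used with build mm10; the sources used here do not say how molecular identifiers or strand were treated. The authors deposited raw counts per gene and, beside them, normalized signal values, log2 (regularised) values, log2 fold changes and p-values. Only the counts entered the tests. The fold changes and p-values of the authors were read, with their pass mark, for the named genes and are reported only for integrins. From 10320 names listed, 17 that a spreadsheet had turned into dates were dropped (0.102 to 0.147% of counts).

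The deposited counts were fitted with edgeR 4.0.16 in R 4.3.3 (filterByExpr by group, TMM, robust quasi-likelihood fit of all 14 libraries), adjusted by the Benjamini-Hochberg method over 7965 genes. Levels are TMM-scaled CPM computed from the counts, intervals are normal 95% intervals, and 0.5 was added to counts in ratios. Libraries are named by the replicate number of their title. Gene coordinates come from GENCODE M21 and promoters from RefSeq on GRCm38.p6; 5 of the 9 genes were in the promoter table. Alternatives were DESeq2 1.42.0, limma 3.58.1 (voom with quality weights), other filters and scalings, replicate blocks, fits of 2 groups and omission of libraries. The procedure was tested on simulated counts. Members and gene lists were chosen with earlier results of these data known. Named genes are the integrins, the other listed subunits, for each list the called genes with the smallest adjusted p (up to 3 at 18 h, 2 at 3 d and 2 between the times), Icam1, Icam2, Vcam1, Cdh1, Tln1, Fermt3, Rap1b and Cd8b1, and the gene nearest in pattern to each integrin. Cerkl, Pf4, Cd8a, Rag1, Cd24a, Rmnd5a, Cd1d1, Tgfbr1, Lyz2, Csf1r and C1qc were added after their values were seen. Deviations of same-numbered libraries of different groups correlated weakly (-0.21 to 0.15). This cannot settle whether the numbers pair samples, and the main fit used no pairing.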

Additional observations from a re-analysis of the deposited data

Results flagged for a closer look

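Single libraries stood apart from their group in 17 of 213 checks on 71 genes, where chance gives about 1 in 20, or 10.7. Among the integrins this was Itgb1 in 3 d replicate 3, at 193 CPM against 95.8 to 111 CPM in the other 3 d libraries, without which the Itgb1 difference between 18 h and 3 d was 1.12 and did not pass (edgeR adjusted p = 0.058). Other integrin subunits set apart were Itga7 in 18 h replicate 4 (3.77 CPM) and Itgax in vehicle replicate 4 (12.1 CPM) and 3 d replicate 1 (9.30 CPM). In vehicle replicate 3 Parvg was at 310.2 CPM and Thy1 at 1057 CPM, and in vehicle replicate 4 Themis was at 14.4 CPM. In 18 h replicate 1, Src (10.9 CPM), Pecam1 (38.5 CPM), Cxcr6 (79.4 CPM) and Icam1 (142 CPM) stood apart. At 3 d these were Vcam1 (21.3 CPM) and Cd8b1 (21.3 CPM) in replicate 1, Smurf2 (152 CPM) and Cd69 (37.9 CPM) in replicate 2, and Endou (0.689 CPM) and Sdr39u1 (97.8 CPM) in replicate 4.

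The effect at 3 d differed from that at 18 h, by edgeR's test of the difference itself, for 3 integrins, as log2 values of 0.92 for Itgae, 1.40 for Itgb1 and -2.02 for Itgb3. Both effects share the vehicle group, so this is the comparison of 3 d with 18 h given above. That comparison called 11.7% of all genes tested. In the integrin machinery the effect differed for Dock2 (0.68), Rapgef1 (0.45), Rap1gap2 (2.66), Zyx (1.01) and Src (2.37). Among ligands and the TGF-beta pathway the differences were 2.54 for Cdh1, -1.24 for Pecam1, 1.20 for Smad7 and -1.61 for Tgfbr3. Residency and NKT genes gave 1.42 for Cd44, 1.63 for Cxcr6, 1.55 for Cxcr3, 2.84 for Klrb1c, 1.45 for Il2rb and -1.49 for Zbtb16. Markers of other cells gave -4.57 for Endou, -1.35 for Mns1 and -1.99 for Mrc1. The genes nearest in pattern to an integrin gave 0.57 for Impdh2, 0.96 for G6pc3 and -1.54 for Pmvk. These nearest genes were picked for their pattern over the same libraries. Many of the other list genes were named because they were called in this same comparison. Their differences are therefore no separate result.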

How the results depend on the processing

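Over 24 alternatives, 524 of 569 recomputed integrin differences kept their direction and their side of the threshold, 21 fell below the threshold, 13 passed it and 11 changed sign. The signs that changed belonged to differences near 0 that were not called: Itga4 at 3 d was 0.09 and Itgal at 3 d 0.00 with limma voom, Itgal at 18 h was 0.00 without 18 h replicates 2 and 3 and vehicle replicate 3, and with 1 library left out the 3 d values ran from -0.03 to 0.11 for Itgal, -0.28 to 0.12 for Itga4 and -0.37 to 0.02 for Itgb1. DESeq2 called 5 integrins between the times, limma voom called 3129 genes of all at 3 d against vehicle, and a fit of only the 2 dexamethasone groups called 607 genes between them. With 1 library left out, integrin calls numbered 3 to 5 at 18 h, 2 to 3 at 3 d and 2 to 4 between the times, and calls over all genes 2160 to 3154, 1488 to 2587 and 643 to 1028. A replicate block by the number of the title gave 4, 2 (without Itgb3) and 3 integrin calls and 2489, 1721 and 755 over all genes, with Itgb1 at 3 d at 0.01; a replicate block by the number of the description, which differs for 3 libraries of 3 d, gave 3 (without Itga4, 0.93, edgeR adjusted p = 0.052), 3 and 3 and 2449, 1790 and 713, with Itgal at 3 d at -0.01. The numbers are not known to pair samples, and correlations of same-numbered deviations ran from -0.21 to 0.15. The causes of these shifts were not tested. Counting depth limits Itgav and Itga4 most.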
